A study of Oryza sativa with 24 samples.

Results

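Rice leaves and roots were compared for the change between arrays labelled trans-zeatin (tZ, a cytokinin) and DMSO, in the groups labelled 30 min. The members are the 12 arrays of those groups, of 24 in all, and the measure is (Leaf tZ minus Leaf DMSO) minus (Root tZ minus Root DMSO) for each probe set. A positive difference means that the change in leaf lay above the change in root. The 4 groups of 3 arrays, by their titles, are leaf with tZ, leaf with DMSO, root with tZ and root with DMSO. Every group came from hydroponic seedlings of Oryza sativa L. cv Nipponbare aged 2 weeks, from which whole roots or the third leaf had been excised and kept in water at 30 °C. By their labels, the tZ groups received 5 µM trans-zeatin with 0.1% DMSO, and the DMSO groups 0.1% DMSO. Excision and solvent are thus common to all. The labels do not state whether replicate arrays stem from separate cultures, so the p-values cover only array-to-array spread, possibly technical.

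Cytokinins are adenine-derived hormones that membrane histidine kinases sense. The signal passes over phosphotransfer proteins to type-B response regulators, which are transcription factors. Their targets include the type-A response regulators, which dampen the signal, and cytokinin dehydrogenases, which break the hormone down. In leaves the hormone is known for greening and delayed senescence, and in roots for limiting growth of the meristem and for acting against auxin.

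Because every sample's tissue field says root, the organ in the titles was checked in the values. OsGLK2, a regulator of chloroplast development, read 7146 to 12157 in the leaf arrays and 3.8 to 11.6 in the root arrays. OsCASP1, a Casparian strip gene of the root endodermis, read 2.9 to 27.1 in leaf and 2062 to 2666 in root. The treatment labels could not be settled in the same way. For all 5 type-A regulators tested, the lowest DMSO 120 min array read above the highest tZ 30 min array, in leaf and in root alike. OsRR9, for example, averaged 12760 in leaf DMSO 120 min arrays and 990 in leaf tZ 30 min arrays. In root these averages were 16091 and 1298. An exchange of the labels tZ 30 min and DMSO 120 min was not tested. The protocol text of root tZ 30 min mentions both times, and its title decided. Every direction given here therefore rests on the labels, and groups are called by them. Were tZ 30 min and DMSO 120 min exchanged, the contrasts of tZ and DMSO at both labelled times would compare times, not treatments. The median signal of an array was 48.05 to 57.0 in leaf and 70.2 to 79.4 in root, and replicate arrays correlated at 0.971 to 0.983 across probe sets.

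Of the 30501 probe sets above background in both organs, 11270 had a leaf minus root difference that passed the test (36.9% called), with 6579 positive (21.6%) and 4691 negative (15.4%). Called here means a limma adjusted p under 0.05 over all probe sets tested. In leaf 13493 probe sets were called (44.2%), 7299 higher (23.9%) and 6194 lower (20.3%) in arrays labelled tZ. In root 11748 were called (38.5%), 4935 higher (16.2%) and 6813 lower (22.3%). The median difference over all probe sets tested was 0.08 on the log2 scale. Of the 2074 named genes tested, at 1 probe set each, 53.6% had a called difference, 28.0% positive and 25.7% negative, and counts in gene lists are set against these shares. Across probe sets, which are not independent replicates, the change in leaf and the change in root correlated at r = 0.354 (rho = 0.261), as a description. In these bulk samples fewer cells of a type and less RNA per cell cannot be told apart.

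**Figure D1:**
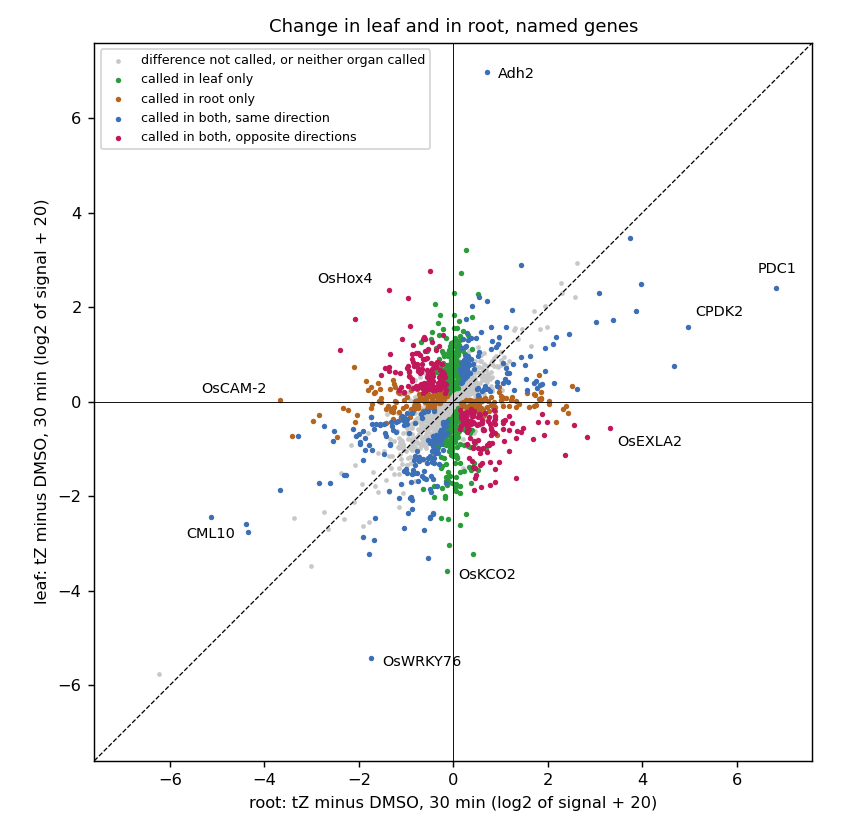
Change between arrays labelled tZ and DMSO at 30 min for 2074 named genes, each at 1 probe set, in leaf (vertical axis) and root (horizontal axis), both as log2 of signal + 20. Colours give the class of the leaf minus root difference, and the dashed line marks equal change. Adh2 lies at 6.98 in leaf and 0.72 in root, and PDC1 at 2.41 and 6.82.

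The called differences fell into 3 kinds. In 6655 probe sets, 59.1% of those called, the change was called in 1 organ and not in the other, 3992 in leaf and 2663 in root. Both organs changed in the same direction with a different size in 2189 (19.4%), 1284 with the larger change in leaf and 905 in root. The organs changed in opposite directions in 2070 (18.4%), 1265 of them higher in leaf and 805 lower in leaf. In the remaining 356 neither organ's change was called although the difference was. A change that misses the threshold is not shown to be absent. In a narrower form, which asks that the 95% interval of the other organ's change lie within 0.5 log2 of 0, 4251 probe sets were left in the 1-organ kind. Genes named below from the classes had to have groups apart in every organ in which the change was called. For them such separation is a condition of choice and no further evidence.

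Leaf-only rises were the most numerous class, at 2516 probe sets, with 1722 in the narrow form. Among the 5 named genes of this class with the largest difference, C20ox2 is the semidwarf gene sd1, which encodes a gibberellin 20-oxidase of gibberellin synthesis. In leaf it read 785, 606 and 768 in the arrays labelled tZ, against 96.6, 52.8 and 140.1 in those labelled DMSO. In root it read 199.9, 228 and 200.2 in tZ arrays and 217, 132 and 215 in DMSO arrays. The groups were apart in leaf and overlapped in root, and the changes were 2.73 and 0.17, a difference of 2.56 (SE 0.38, adjusted p = 6.6e-06). OsCPS4, the syn-copalyl diphosphate synthase of momilactone synthesis, met the narrow form. It read 408, 358 and 423 in leaf arrays labelled tZ, against 86.2, 64.5 and 46.7 in leaf DMSO arrays. The root arrays of OsCPS4 held similar levels under both labels, 624, 581 and 751 with tZ and 624, 681 and 621 with DMSO. Its leaf level in tZ arrays remained under its root level in every array, and its difference was 2.29 (SE 0.31, adjusted p = 2e-06). A gene named peroxidase changed by 3.20 in leaf and 0.27 in root, a difference of 2.93 (SE 0.31, adjusted p = 4.3e-08), and without root tZ replicate 1 its root change was called too. BGLU3, a beta-glucosidase gene, and OsCASPL1U3, of the CASP-like membrane proteins, had differences of 2.44 and 2.12. The other probe set of BGLU3 gave a smaller difference, 1.46, in the same class. OsCASPL1U3 was far higher in root throughout, at 3531 to 4972 in the 6 root arrays, and in leaf it read 191, 177 and 156 in tZ arrays against 31.4, 26.3 and 46.9 in DMSO arrays.

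In leaf alone 1476 probe sets fell, 977 of them in the narrow form. OsKCO2, a potassium channel gene also named TPKB, read 84.6, 93 and 107 in leaf arrays labelled tZ, against 1402, 1352 and 1325 in leaf DMSO arrays. Its root levels were 448, 476 and 448 with tZ and 539, 478 and 495 with DMSO. The leaf groups stood far apart, whereas the root change was -0.13 (adjusted p = 0.6), and the difference was -3.46 (SE 0.25, adjusted p = 5.9e-11). The tonoplast aquaporin gene OsTIP2;2 read 374, 298 and 339 in tZ arrays of leaf and 2694, 2981 and 3004 in DMSO arrays of leaf. Root arrays held much higher levels of OsTIP2;2, at 12051, 14441 and 13294 with tZ and 13839.7, 13537 and 15192 with DMSO, and these overlapped. Its difference was -2.93 (SE 0.11, adjusted p = 9.6e-16). OsCRSH2, a calcium-activated synthase of the plastid alarmone ppGpp, read 280.3, 289 and 322 in leaf tZ arrays against 3071, 2994 and 2734 in leaf DMSO arrays. In root the 3 tZ arrays of OsCRSH2 lay above the 3 DMSO arrays, 283, 214 and 215 against 161, 169 and 187, with a change of 0.41 that was not called (adjusted p = 0.09). CEBIP, the receptor for chitin fragments at the plasma membrane, changed by -2.37 in leaf and 0.27 in root. For pla2-II, named as a phospholipase gene, the changes were -2.61 and 0.14, and its leaf tZ arrays read only 6.9, 13.3 and 9.4, near the added constant of 20. With quantile normalization, over all arrays or within each organ, OsCRSH2 and CEBIP became opposite and OsTIP2;2 lower in both organs.

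Root-only rises numbered 1092 probe sets, 706 in the narrow form. OsPIN5, also named OsPIN9, belongs to the PIN family of auxin efflux carriers. Its leaf signal was low under both labels, at 19.2, 36.8 and 30.4 with tZ and 46.8, 23.9 and 33.3 with DMSO. The root signal was 2291, 2321 and 2182 in arrays labelled tZ, against 431, 447 and 438 in DMSO arrays. The leaf groups overlapped and the root groups were apart, and the difference was -2.47 (SE 0.33, adjusted p = 1.4e-06). KRP6, an inhibitor of cyclin-dependent kinases, read 40.7, 29.6 and 26.6 in leaf tZ arrays and 48.2, 59.9 and 44.2 in leaf DMSO arrays, where its change of -0.44 was not called. The root levels of KRP6 were 1041, 1146 and 1084 with tZ and 217, 250.3 and 217 with DMSO. Its difference was -2.60 (SE 0.36, adjusted p = 3.1e-06). OrysaZ1, a serpin protease inhibitor gene, changed by -0.24 in leaf and 2.43 in root. The peroxiredoxin gene R1C-Prx had changes of -0.09 in leaf and 2.38 in root. OsELA3, also named ENODL18 for early nodulin-like proteins, changed by 0.32 in leaf and 2.52 in root. The highest leaf signal of OsPIN5, KRP6, R1C-Prx and OrysaZ1 was 135, for OrysaZ1, so a leaf change of these genes was measured near the low end of the array.

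In root alone 1571 probe sets fell, with 846 in the narrow form. OsCAM-2, a calmodulin family gene also named CML5, had the largest difference of this class among named genes. Its leaf arrays lay at 366, 333 and 292 with tZ and 309, 321 and 337 with DMSO. The root arrays read 464, 399.6 and 447 with tZ, against 6643, 5564 and 5139 with DMSO. Leaf groups overlapped while root groups were far apart, with changes of 0.03 in leaf and -3.66 in root and a difference of 3.69 (SE 0.33, adjusted p = 2.3e-09). A further probe set of this gene gave a difference of 4.76. Os4CL5, a coumarate-CoA ligase at the entry to lignin synthesis, read 1924, 2126 and 2146 in leaf tZ arrays and 2443, 2572 and 2546 in leaf DMSO arrays, a change of -0.29 that was not called. In root it read 1242, 1594 and 1327 with tZ, against 9512, 9814 and 10648 with DMSO. OsTPP4, a trehalose phosphate phosphatase gene, had leaf values just outside the threshold, with a change of 0.74 (adjusted p = 0.053), opposite to that of -2.11 in root. RCABP89, a light-harvesting gene, was likewise just outside it, with a leaf change of -0.73 (adjusted p = 0.052) and a root change of -3.41. CAB2R, which encodes another light-harvesting protein, changed by -0.42 in leaf and -2.96 in root. The other probe set of CAB2R gave a difference of 2.43 but was not in this class. In leaf CAB2R read 18544, 18905 and 17107 in tZ arrays against 23823, 23769 and 25237 in DMSO arrays. RCABP89 read 12900, 13561 and 13760 against 21351, 21877 and 23758 there, so the leaf groups of both were apart although not called. RCABP89, Os4CL5 and CAB2R counted as lower in both organs, with the larger change in root, in 2 other fits. These were the 30 min groups fitted alone and a separate fit for each organ. RCABP89 did so also with 80 as the added constant, and without root tZ replicate 1 or 2. OsTPP4 counted as opposite, with leaf higher, in those 2 fits and with 5 as the added constant.

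CAB2R and RCABP89 encode proteins of the chloroplast. The photosynthesis list counted here holds CAB2R but not RCABP89, whose difference was positive at 2.68. Summed over the 8 photosynthesis genes tested, the signal was 94789 to 105385 in leaf tZ arrays and 131143 to 145120.0 in leaf DMSO arrays. In root the sum was 4617 to 5036 in tZ arrays and 15897 to 17771 in DMSO arrays. In leaf 5 of the 8 were called lower, against 32.5% of all named genes, and 0 higher. In root 7 were lower, against 31.1% of all named genes, and 0 higher. The difference was called for 3, all positive, namely CAB2R, the plastocyanin gene PETE at 2.21 and the rubisco activase gene OsrcaA1 at 1.09. That is 37.5% of the list, under the 53.6% of all named genes, and the median difference of the list was -0.01. With 80 as the added constant 3 were positive and 3 negative, and with the probe sets of a gene averaged 3 and 1. The part of photosynthesis genes in the other results was not tested.

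**Figure D2:**
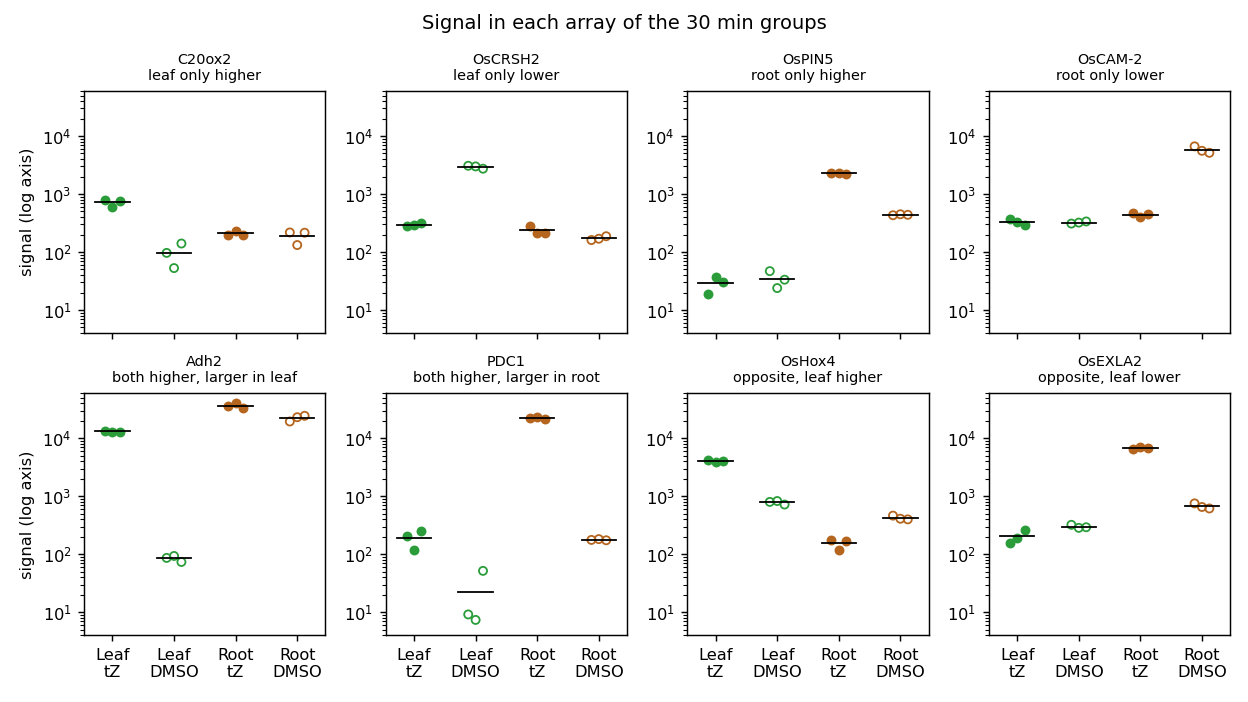
Signal of 8 genes in each of the 12 arrays of the 30 min groups, on a log axis, with filled points for tZ, open points for DMSO and a line for the mean of 3 arrays. C20ox2 and OsCRSH2 differ between labels in leaf, OsPIN5 and OsCAM-2 in root, and the 4 lower panels in both organs.

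Genes that changed in the same direction with different size included the largest difference of all named genes. Adh2, an alcohol dehydrogenase of ethanol fermentation, read 13259.8, 13089 and 13093 in leaf arrays labelled tZ, against 86.8, 93.8 and 73.9 in leaf DMSO arrays. In root it was already high, at 36221, 40558 and 33525 with tZ against 19540.5, 23171 and 24497 with DMSO. Neither organ's groups overlapped, and the changes of 6.98 and 0.72 differed by 6.26 (SE 0.14, adjusted p = 3.9e-19). PDC1, the pyruvate decarboxylase that acts before alcohol dehydrogenase in the same pathway, had its larger change in root. Its leaf arrays read 209, 119 and 251 with tZ and 9.2, 7.4 and 51.9 with DMSO. The root arrays read 22266, 23470.3 and 21699 with tZ, against 177, 183 and 175 with DMSO. Changes of 2.41 in leaf and 6.82 in root gave a difference of -4.41 (SE 0.36, adjusted p = 7.4e-10). In the fermentation and hemoglobin list 5 of 6 members were higher in each organ, against 29.5% of all named genes in leaf and 23.2% in root. The difference was called positive for 1 and negative for 3, against 28.0% and 25.7% of all named genes. The hemoglobin gene NSHB2 read 623 ± 62.5 in leaf tZ arrays and 150.1 ± 32 in leaf DMSO arrays, against 42419 ± 3374 in root tZ arrays and 2886 ± 356 in root DMSO arrays (SD, n = 3 each), a difference of -1.94.

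Probe sets lower in both organs with the larger fall in leaf numbered 700, and those with the larger fall in root 424. OsWRKY76, a WRKY factor known as a negative regulator of blast defence, read 249, 242 and 224 in leaf tZ arrays against 10924, 11071 and 11417 in leaf DMSO arrays. Root levels were 326, 259.9 and 219 with tZ and 1136, 887 and 808 with DMSO. The leaf and root levels of OsWRKY76 overlapped with tZ and were far apart with DMSO, and its difference was -3.69 (SE 0.22, adjusted p = 2.6e-12). OsTIP1, a tonoplast aquaporin gene also named OsTIP1;2, changed by -3.30 in leaf and -0.53 in root. The riboflavin synthesis gene OsRIBA2 had a difference of -2.11. CIGR1, a chitin-inducible GRAS protein gene, had one of -1.97. On the other side, the calmodulin-like gene CML10 changed by -2.44 in leaf and -5.12 in root, with a difference of 2.69 (SE 0.73, adjusted p = 0.0047). OsGLU10, an endoglucanase gene of the cell wall, had changes of -0.72 in leaf and -3.28 in root, and its leaf change was not called without leaf tZ replicate 1 or 2, or without leaf DMSO replicate 2 or 3.

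Rises in both organs were larger in leaf for 584 probe sets and larger in root for 481. CPDK2, a pyruvate phosphate dikinase gene also named PPDK2, read 134, 167 and 180.4 in leaf tZ arrays and 21.7, 60.8 and 42.8 in leaf DMSO arrays. In root it read 22467, 23653 and 21401 with tZ, against 653, 774 and 688 with DMSO, and its difference was -3.37 (SE 0.27, adjusted p = 3.5e-10). For CPX the changes were 0.26 in leaf and 2.61 in root, with the labels apart in both organs.

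Opposite directions were the kind with the largest typical difference, a median of 1.29 where leaf was higher and -1.25 where leaf was lower. The definition favours this, since 2 called changes of opposite sign add up in the difference. The difference was called for 100% of probe sets called in opposite directions, against 46.6% of those higher and 38.0% of those lower in both organs. The 100% follows from the same addition and is no result. OsHox4, a homeodomain-leucine zipper factor, read 4254, 3970.4 and 4148 in leaf tZ arrays against 802, 831 and 722 in leaf DMSO arrays. Root arrays read 179, 120.0 and 167 with tZ against 465, 411 and 401 with DMSO. The labels were apart in both organs, in opposite order, with changes of 2.37 and -1.36 and a difference of 3.73 (SE 0.16, adjusted p = 8.3e-15). OsHox2, of the same family, read 270.0, 188 and 250.4 with tZ and 35.9, 66.2 and 68.9 with DMSO in leaf. Its root arrays read 121, 49.2 and 167 with tZ and 637, 491 and 389 with DMSO, and the difference was 3.83 (SE 0.37, adjusted p = 8.9e-09). Of 21 homeodomain-leucine zipper genes tested, 8 had a positive and 3 a negative difference, together 52.4%, close to the share over all named genes, with a median of -0.05. The beta-tubulin gene TUB2 read 2259, 2179 and 2399 in leaf tZ arrays, against 354, 284 and 312 in leaf DMSO arrays. Root levels of TUB2 were 3416, 3113 and 3377 with tZ and 5044, 4439 and 4576 with DMSO, a smaller change than in leaf and downward. OsPHT3, named as a phosphate transporter, had changes of 1.09 in leaf and -2.40 in root. XBOS31, a ubiquitin ligase gene of the RING type, had changes of 2.20 and -0.96.

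The reverse pattern was led by OsEXLA2, an expansin-like gene of the cell wall. In leaf it read 155, 194 and 262 with tZ against 323, 286 and 293 with DMSO. In root it read 6543, 7171 and 6877 with tZ against 757, 656 and 619 with DMSO. Leaf groups lay close but apart, and root groups far apart in the other order, for a difference of -3.85 (SE 0.24, adjusted p = 6.4e-12). Without leaf tZ replicate 1 the leaf change of OsEXLA2 was not called and the gene counted as higher in root only. OsPPDKB, a further pyruvate phosphate dikinase gene, read 4887, 5102 and 5028 in leaf tZ arrays and 7129, 7238 and 6799 in leaf DMSO arrays. Its root levels were 9259, 10338 and 10239.7 with tZ and 1592, 1684 and 1758 with DMSO, so root lay above leaf with tZ and under it with DMSO. Its difference was -3.05 (SE 0.13, adjusted p = 6e-15). IAA2, an Aux/IAA repressor of auxin signalling, showed the same crossing, at 808, 989.7 and 842 and 2763, 2815 and 2636 in leaf with tZ and DMSO. Root arrays of IAA2 read 2853, 2845 and 2747 with tZ and 1057, 1118 and 1171 with DMSO. OsLSD1, a zinc finger gene related to the Arabidopsis regulator of cell death, had changes of -0.74 and 2.83, with all 3 of its probe sets in this class. SAT1, a serine acetyltransferase gene of cysteine synthesis, had changes of -1.12 in leaf and 2.36 in root, a difference of -3.48. Its other probe set was in the same class with a smaller difference, -1.50.

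Of the 5 type-A regulators tested, 4 had a negative difference and 0 a positive one, with a median of -1.04. OsRR4 read 371, 307 and 383 in leaf tZ arrays against 296, 305 and 300.3 in leaf DMSO arrays, a change of 0.21 whose 95% interval lay within 0.5 of 0 and which was called without leaf tZ replicate 2. Its root arrays read 2500.5, 2099 and 2421 with tZ against 662, 602 and 624 with DMSO. Its difference was -1.64 (SE 0.15, adjusted p = 3.2e-09). OsRR9 was lower with tZ in both organs, with changes of -1.63 in leaf and -0.59 in root and a difference of -1.04 (SE 0.11, adjusted p = 6.4e-08). OsRR1 fell in leaf, with 27.2, 63.6 and 6.7 in tZ arrays and 82.8, 90.5 and 118 in DMSO arrays, a difference of -1.74 (SE 0.38, adjusted p = 0.00065). OsRR6 was higher with tZ in both organs, 0.82 in leaf and 1.05 in root, and its difference of -0.23 was not called (95% interval -0.45 to -0.00). OsRR2 had a difference of -0.72 (adjusted p = 0.019), which was lost without root DMSO replicate 1, at -0.62, or without leaf DMSO replicate 1 or 3, at -0.57 and -0.62.

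Breakdown and supply of the hormone were measured by other members. The dehydrogenase gene OsCKX11 was higher with tZ in both organs to a like extent. It read 1952, 1998 and 2105 in leaf tZ arrays and 291, 359.8 and 369 in leaf DMSO arrays. Root levels were 6737, 6932 and 7084 with tZ and 1502, 1317 and 1428 with DMSO. Both changes stood out from the replicate spread, at 2.51 and 2.27, and their difference of 0.23 was not called (95% interval -0.03 to 0.50). OsCKX4 had a difference of 0.39 that was not called (95% interval -0.02 to 0.81). OsCKX5 had one of -0.68 (adjusted p = 0.024), which was lost without replicate 1 of any of the 4 groups, at -0.53 to -0.64. Of 8 genes of cytokinin synthesis and activation, 5 had a negative difference and 1 a positive one. LOGL3 and LOGL7, of the enzymes that release active cytokinin from its nucleotide, had changes of -3.22 and -1.59 in leaf and -1.79 and -0.15 in root. LOGL1 was opposite, at 0.84 in leaf and -0.86 in root. Among 11 receptor, phosphotransfer and type-B genes, 2 had a positive and 5 a negative difference. The phosphotransfer gene OsHpt5 read 132 ± 12.4 in leaf tZ arrays and 608 ± 28.7 in leaf DMSO arrays (SD, n = 3 each), with a change of -0.17 in root that was not called.

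In leaf 62% of the 2074 named genes were called, 29.5% higher and 32.5% lower with tZ, and in root 54.4%, 23.2% higher and 31.1% lower. Of 36 ribosomal protein and translation factor genes, 29 had a positive difference and 0 a negative one, with a median of 0.64 against 0.04 over all named genes. In leaf 32 of them were higher with tZ and 1 lower, and in root 14 were higher and 1 lower. RPS26 read 10307 ± 1079 in leaf tZ arrays, against 3041 ± 112 in leaf DMSO arrays (SD, n = 3 each). Its root levels were 8631 ± 393 with tZ and 7204 ± 235 with DMSO, so the leaf level with DMSO was the low one of the 4. The same order held for RPL3, at 10795 ± 699 and 4438 ± 126 in leaf, and 10294 ± 560.3 and 9726 ± 202 in root, with tZ and DMSO. RPL7A-2 changed by 1.27 in leaf and by -0.02 in root. rps20 was opposite, at 1.10 and -0.37.

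Of 23 histone and DNA replication genes, 11 had a positive difference and 0 a negative one, and 6 and 2 after quantile normalization over all arrays. The single-strand DNA binding gene OsRPA70c changed by 1.51 in leaf and 0.21 in root. OsORC2, of the replication origin complex, was opposite, at 0.60 and -0.71. Among 10 tubulin genes 5 were positive and 0 negative. The D-type cyclin gene CYCD3-2 read 162 ± 47.3 in leaf tZ arrays and 36.9 ± 10.0 in leaf DMSO arrays (SD, n = 3 each), a difference of 1.98. In its list of 36 cyclins, kinases and inhibitors, 10 were positive and 8 negative, near the shares over all named genes, and in that of 27 kinesins 7 were positive and 3 negative.

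**Figure D3:**
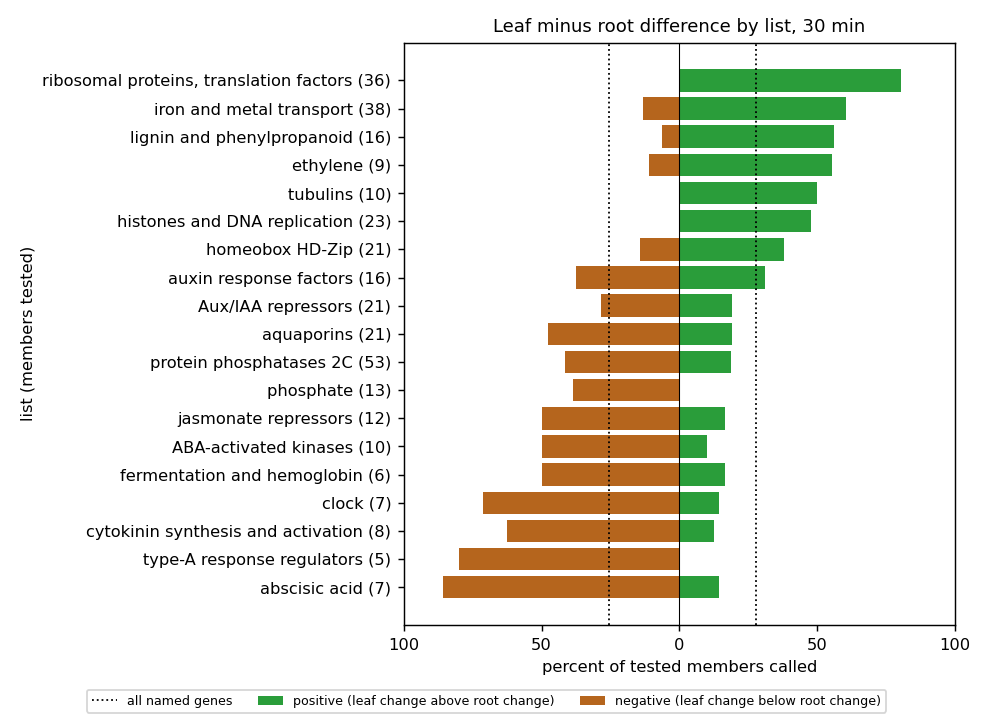
Percent of tested members of 19 of the gene lists counted, picked after their values were seen, with a called leaf minus root difference at 30 min, positive to the right and negative to the left, with the number tested in brackets. Dotted lines mark the shares over all named genes, 28.0% positive and 25.7% negative. Of the lists drawn, ribosomal genes reach furthest to the right and abscisic acid genes furthest to the left.

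All 7 abscisic acid genes tested had a called difference, 6 negative and 1 positive, with a median of -1.67, and 5 were opposite in the organs. OsABA8ox1 and OsABA8ox2 encode hydroxylases that break abscisic acid down. OsABA8ox1 read 10836, 10271 and 11828 in leaf tZ arrays against 19737, 20323 and 21725 in leaf DMSO arrays. The root arrays gave 13014, 12455 and 11529.8 with tZ against 7594, 7093 and 7084 with DMSO. No groups overlapped, leaf fell and root rose, and the difference was -1.67 (SE 0.11, adjusted p = 2.7e-11). OsABA8ox2 had changes of -1.75 and 0.77. OsABA1, a zeaxanthin epoxidase of abscisic acid synthesis, moved in the same directions, at -0.63 in leaf and 1.44 in root. OsPYL11, of the abscisic acid receptor family, was the positive member, with a root change of -0.44. Of 10 kinases of the SAPK family, which act downstream of those receptors, 5 had a negative and 1 a positive difference. OsSAPK4 had changes of -0.57 in leaf and 0.63 in root. Of 53 protein phosphatases of type 2C, a family that includes negative regulators of abscisic acid signalling, 22 were negative and 10 positive. OsPP2C02 changed by -1.41 in leaf and 0.87 in root, and OsPP2C33 by 0.73 and -1.36.

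Of 38 genes of iron and metal transport, 23 had a positive and 5 a negative difference, with a median of 0.49. In leaf 13 of them were higher with tZ and 10 lower, and in root 4 were higher and 19 lower. OsIRT1, the iron transporter of root uptake, read 302, 242 and 333 in leaf tZ arrays against 216, 149 and 169 in leaf DMSO arrays. Root arrays read 3827, 3949.8 and 3632 with tZ against 9747, 9751 and 9954 with DMSO. Groups were apart in leaf and in root, in opposite order, and the difference was 2.02 (SE 0.24, adjusted p = 3.4e-07). The transporter gene osysl15, which takes up iron bound to phytosiderophores, read 3071 ± 329 in root tZ arrays and 10281 ± 734 in root DMSO arrays (SD, n = 3 each). OsMTP5, of the metal tolerance proteins, was on the negative side at -1.12. Of 21 aquaporin genes, 10 were negative and 4 positive, with a median of -0.41. Beside OsTIP2;2 and OsTIP1, the plasma membrane aquaporin gene OsPIP2;6 read 272 ± 8.9 in leaf tZ arrays and 1627 ± 182 in leaf DMSO arrays (SD, n = 3 each), with no called change in root. The silicon channel gene OsNIP2;2 was opposite, at 0.59 in leaf and -0.54 in root. Of 13 phosphate genes 5 were negative and 0 positive, among them the phosphate starvation factor OsPHR3 at -1.68. That list does not hold OsPHT3, whose difference was positive at 3.49. Of 24 potassium and sodium transport genes 5 were positive and 7 negative, with a median of -0.05. Of 18 genes of ammonium, nitrate and amino acid assimilation 3 were positive and 6 negative, with a median of 0.05.

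Of 16 lignin and phenylpropanoid genes, 9 had a positive and 1 a negative difference, with a median of 0.80. The exception, OsCCR1, a cinnamoyl-CoA reductase gene, read 2096 ± 92.3 in root tZ arrays against 64.8 ± 21.7 in root DMSO arrays (SD, n = 3 each). In leaf it changed by 0.75 with overlapping arrays, and its difference of -3.92 was larger in size than any positive one of the list. PAL06, of the phenylalanine ammonia-lyases that open the pathway, was opposite, at 1.60 in leaf and -0.91 in root.

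Of 9 ethylene genes 5 were positive and 1 negative. The synthase gene OsACS2 and the receptor gene OsETR3 were called in root alone, at -1.85 and -1.57. Of 12 jasmonate repressors of the JAZ family, 10 were lower with tZ in leaf and 10 in root, and the difference was negative for 6 and positive for 2. OsJAZ10 changed by -2.36 in leaf and -0.96 in root, whereas the OsJAZ3 gene LOC4331832 changed by -2.59 and -4.39. Of 16 auxin response factor genes, 5 were positive and 6 negative, with 11 lower in leaf and 7 lower in root. ARF17 stood against these, at 1236 ± 24.5 in leaf tZ arrays and 329.5 ± 16.3 in leaf DMSO arrays (SD, n = 3 each), with a root change of 0.01. Of 21 Aux/IAA repressors 4 were positive and 6 negative. Of 7 clock genes 5 were negative and 1 positive. OsPRR95 read 10755 ± 800.3 in root tZ arrays and 2630.2 ± 294 in root DMSO arrays (SD, n = 3 each), with a leaf change of -0.04. OsPCL1 rose in both organs, by 2.89 in leaf and 1.42 in root.

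The same difference was measured in the 12 arrays labelled 120 min, none of which enter the 30 min difference, although the fit shares its estimate of the spread. The doubt about the labels applies to both labelled times. Of 30501 probe sets 11126 were called there (36.5%), 20.6% positive and 15.9% negative. Of the 11270 called at 30 min, 93.6% had the same sign at 120 min, 7989 (70.9%) were called with the same sign, and 98 were called with the opposite sign. Across all probe sets the differences at 30 and 120 min correlated at r = 0.733 (rho = 0.646), as a description. The opposite classes were called again with the same sign most often, at 90.6% where leaf was higher and 91.3% where leaf was lower. Their differences are larger by definition, so this order is a description only. Falls in both organs that were larger in root were called again in 29.0%. The median difference of that class was 0.81 at 30 min and 0.26 at 120 min. The genes named from that class had a wide spread in root tZ arrays labelled 120 min, at 1179 ± 1649 for CML10 and 359 ± 282 for OsGLU10 (mean ± SD). In root DMSO arrays labelled 120 min they read 6321 ± 480 and 1071 ± 94. Whether this spread lowered the share called again or the median was not tested, so neither value shows a loss with time.

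**Figure D4:**
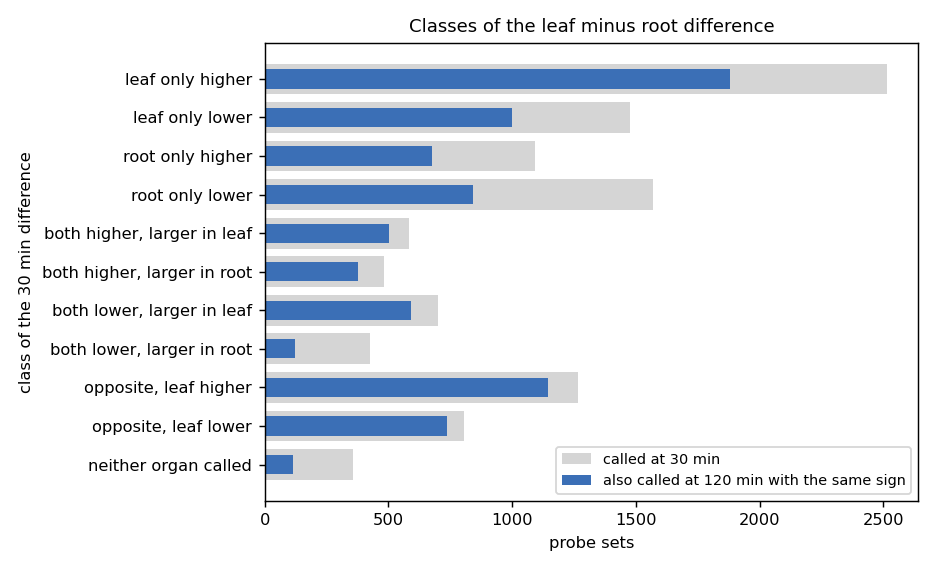
Number of probe sets in each class of the 30 min leaf minus root difference (grey) and the number also called with the same sign at 120 min (blue). Leaf-only rises are the largest class, with 1881 of 2516 called again.

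The difference itself differed between the labelled times in 971 probe sets (3.18% called), 1.27% with a higher and 1.91% with a lower value at 120 min. All 5 type-A regulators were among them. OsRR4 had a difference of -1.64 at 30 min and 1.25 at 120 min. In the 120 min groups it read 4139.9 ± 307 in leaf tZ arrays and 749 ± 62.3 in leaf DMSO arrays. Its root arrays labelled 120 min read 6888 ± 929.7 with tZ and 3019 ± 361 with DMSO. The sign of OsRR1 also differed, at -1.74 and 0.75, as did those of OsRR2 at -0.72 and 1.94, OsRR9 at -1.04 and 0.64, and OsRR6 at -0.23 and 1.54. Of the 40 genes named from the 8 classes all kept their sign at 120 min, and 38 were called there. RCABP89, at 0.43, and CML10, at 1.05, were not called at 120 min. In root tZ arrays labelled 120 min RCABP89 read 175 ± 112 and CML10 1179 ± 1649 (SD, n = 3 each), both with a wide spread. These 40 were chosen for a large difference at 30 min, so a smaller value at 120 min is no result.

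**Figure D5:**
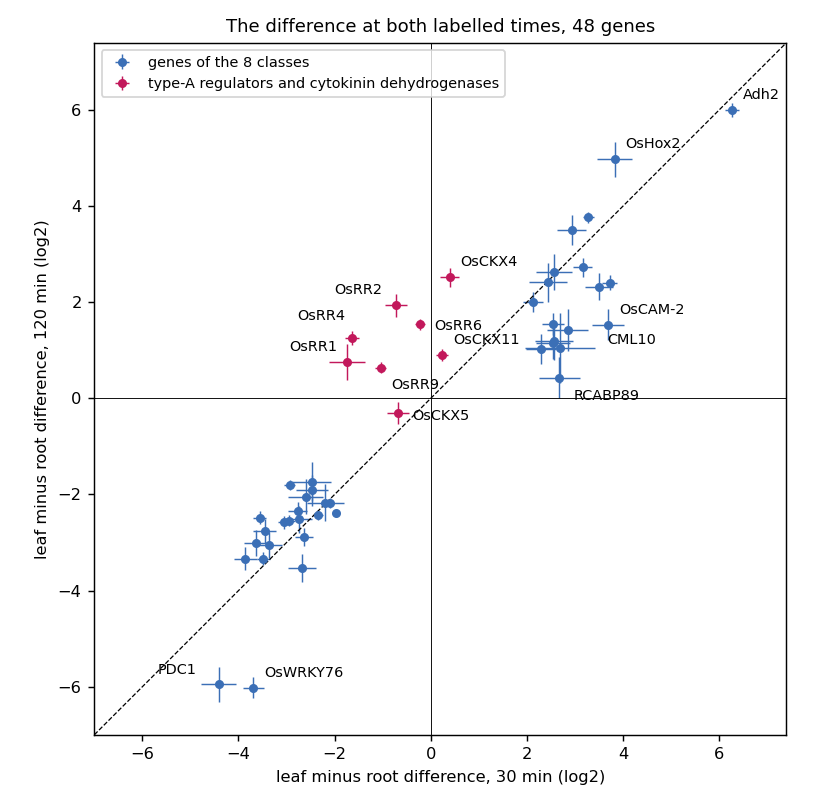
Leaf minus root difference at 30 min (horizontal axis) and 120 min (vertical axis), in log2, for the 48 genes named by rule, with bars of 1 SE. The 40 genes chosen by class keep their sign, whereas the 5 type-A regulators are negative at 30 min and positive at 120 min.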

How the data were processed

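The authors deposited intensity on a linear scale, already brought to a common trimmed mean. How probes were summarised is not given in the sources used here. Arrays were grouped by title. After 187 control probe sets were left out, 57194 remained. Signals became log2(signal + 20), with no further normalization, and the constant shrinks changes of dim genes. Probe sets with a mean log2 value above the 40th percentile in leaf and in root, 30501 in all, entered limma 3.58.1 under R 4.3.3 (lmFit, then eBayes with trend, two-sided, Benjamini-Hochberg). All 24 arrays shared 1 fit, differences between organs were interaction contrasts, and all adjusted p-values come from it. Precision is limited by 3 arrays per group. The fit was tested on simulated data.

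The array's annotation ties 22436 probe sets to 1 gene, 95 to more and 34663 to none. Symbols are those of RefSeq (assembly ASM3414082v1), from which no positions were taken. A gene with several probe sets stands at its brightest. Of 372 such named genes, 200 had all probe sets in 1 class and 10 had called differences of opposite sign. The 48 genes named by rule are the 5 with the largest difference in each of 8 classes, plus all tested type-A regulators and cytokinin dehydrogenases. The genes taken from the classes had replicate groups apart wherever a change was called. The 2 most different members of a list in each direction were also to be named, but list members are not among the 48 unless they came in by those rules. Other list members named were picked after their values were seen. Members, lists and tests were chosen with earlier results of these data known. A planned description of promoter motifs was not run.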

Additional observations from a re-analysis of the deposited data

Results flagged for a closer look

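The leaf minus root difference differed between the labelled times, tested as the difference at 120 min minus that at 30 min, for all 5 type-A regulators, each with a positive value. It was 2.90 for OsRR4, 2.66 for OsRR2, 2.49 for OsRR1, 1.77 for OsRR6 and 1.68 for OsRR9, with adjusted p from limma of 6.7e-09, 3.4e-05, 0.0084, 1.9e-07 and 7.6e-07. For the cytokinin dehydrogenases it was 2.13 for OsCKX4 (adjusted p = 6.4e-05) and 0.66 for OsCKX11 (adjusted p = 0.043). OsCKX4 read 2941 ± 174 in leaf tZ arrays and 1146 ± 96.0 in leaf DMSO arrays at 120 min, against 395 ± 62.6 in root tZ arrays and 916 ± 135 in root DMSO arrays (SD, n = 3 each). The doubt about the labels, given above, applies to all these values.

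The difference between times also passed the test for 7 genes named by class. These were chosen for the size of their difference at 30 min, which is a term of that test, so their values are a description only and a smaller size at 120 min is no result. The difference at 120 min minus that at 30 min was -2.33 for OsWRKY76, -0.42 for CIGR1, 1.13 for OsTIP2;2, 1.08 for OsLSD1, -2.25 for RCABP89, -2.16 for OsCAM-2 and -1.32 for OsHox4.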

How the results depend on the processing

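Directions and calls of the 30 min counts held within 1.5 times of the reported count under every pseudocount, scaling, filter and fit tried, with 2 exceptions. Probe sets with neither organ called numbered 205 with a 60th percentile filter, and asking for a difference of at least 1 left 4753 calls, with 2545 in 1 organ, 719 in the same direction, 1371 opposite and 118 in neither organ. Leaving out each array in turn gave 10500 to 10850 calls of the difference, 12369 to 13624 in leaf and 10521 to 11724 in root. The kinds ranged over 6283 to 6564 for 1 organ, 1867 to 1982 for the same direction, 1849 to 1998 for opposite and 329 to 397 for neither. The difference between times was called in 749 to 1101 without 1 array and in 646 without the intensity trend, and the 120 min difference in 11244 without root tZ 120 min replicate 2, an alternative chosen after seeing the data. The cause of these moves was not tested, other than by fewer arrays or probe sets.

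Replicate numbers did not pair the arrays, since deviations of same-numbered arrays correlated at -0.027 to 0.070. With the replicate number as a block 11129 differences were called, against 11270 without it. The share of positive calls, 58.4%, ran from 54.8% to 59.5%. Of 1093 comparisons of the 48 genes named by rule with alternatives, 1086 kept direction and call, and the other 7 concern OsRR2 and OsCKX5. Other list members were not compared singly in this way. With a pseudocount of 80 the difference was -1.55 for pla2-II, -1.44 for OsELA3 and -0.99 for OsRR1. The strict filter tested 37 of the 48 named genes. Of 480 list counts 461 stayed within 1.5 times.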

Other observations

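Of all named genes 28.0% had a positive and 25.7% a negative difference at 30 min, the shares against which further lists are set. Of 24 calmodulin-like genes, 8 had a positive and 5 a negative difference at 30 min, OsCAM-2 and CML10 among the positive ones. Of 46 calcium-dependent and CIPK kinase genes 12 were positive and 17 negative, 63% called against 53.6% of all named genes. CML15 read 1093 ± 20.9 in leaf tZ arrays and 1879 ± 40.7 in leaf DMSO arrays, against 13784 ± 453 in root tZ arrays and 5507 ± 108 in root DMSO arrays (SD, n = 3 each), a difference of -2.09. The kinase gene OsCIPK31 was lower with tZ in leaf, at -1.87, and higher in root, at 0.45. OsCIPK16 was higher in both organs, at 1.69 in leaf and 3.02 in root. OsCDPK21 was called in root alone, at -1.81.

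Of 6 trehalose phosphate phosphatase genes, 3 had a positive and 2 a negative difference. OsTPP7 fell by 1.87 in leaf and by 3.67 in root, and OsTPP2 changed by -0.65 in leaf and 0.88 in root. Of 15 glutaredoxin genes 2 were positive and 6 negative. GRXS5 read 2584 ± 96.5 in leaf tZ arrays and 14026 ± 443 in leaf DMSO arrays, against 14478 ± 246 in root tZ arrays and 20276 ± 1401 in root DMSO arrays (SD, n = 3 each). GRXS2 was opposite, at -1.31 in leaf and 0.60 in root. MADS box genes had few calls, 1 positive and 1 negative of 13.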
